A study of Homo sapiens with 12 samples.

Results

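TKTL1, TKT and TKTL2 make up the transketolase family, and TALDO1, PGD, PGLS, RPE and RPIA encode further enzymes of the pentose phosphate pathway. These 8 genes, of 18417 measured, are described here across 2 human leukaemia cell lines without and with decitabine. Each gene had 1 row in the table of array values. TKTL1 was selected on its measured rise with decitabine, among the largest in both lines, so its response to the drug is given as a description with no test, and the other 7 were added as its family and pathway.

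KS stands for K562, a long-established cell line derived from chronic myeloid leukaemia. KA stands for K562/ADR, its multidrug-resistant subline, obtained with adriamycin (doxorubicin) and kept in 50 nM of it. Both lines grew in RPMI medium with fetal calf serum, and treated cultures received 5 nM decitabine, a hypomethylating deoxycytidine analogue, for 72 hours. The 4 groups, namely untreated KS, treated KS, untreated KA and treated KA, held 3 Affymetrix arrays each. Effects of the line and of its adriamycin-containing medium cannot be told apart, and whether adriamycin was present during treatment is not given in the labels. Nothing in the labels says that replicates were separate cultures, so each p-value reflects the spread among these samples alone, which may be technical. What untreated cells received is not given in the labels either.

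The pentose phosphate pathway draws on glucose 6-phosphate. Its oxidative branch yields NADPH, the reductant for biosynthesis and for glutathione, and ribulose 5-phosphate. Its non-oxidative branch interconverts this sugar with ribose 5-phosphate, the backbone of nucleotides, and with intermediates of glycolysis. Transketolase, which carries thiamine diphosphate, and transaldolase move carbon units between these sugars. TKTL1 is a transketolase relative found in testis and in many tumours, and whether it has transketolase activity of its own has been disputed.

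Decitabine acts on DNA methylation at CG pairs, so the promoter windows of TKTL1, whose value rose most among the 8 genes, are shown beside that of its relative TKT. Each window runs from 250 bases before to 50 after a RefSeq start in GRCh38.p14, and capitals mark every CG. The first start of TKTL1 lies at its upstream end (chrX:154295545-154295844, plus strand), the second inside the gene (chrX:154304920-154305219, plus strand), and that of TKT on chr3:53255973-53256272, minus strand.
TKTL1 first start: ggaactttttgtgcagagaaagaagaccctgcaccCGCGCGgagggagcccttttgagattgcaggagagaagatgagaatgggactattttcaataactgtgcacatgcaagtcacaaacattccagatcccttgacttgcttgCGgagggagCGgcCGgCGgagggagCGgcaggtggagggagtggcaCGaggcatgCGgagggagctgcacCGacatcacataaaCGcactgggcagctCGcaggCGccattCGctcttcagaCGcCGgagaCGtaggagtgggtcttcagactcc
TKTL1 second start: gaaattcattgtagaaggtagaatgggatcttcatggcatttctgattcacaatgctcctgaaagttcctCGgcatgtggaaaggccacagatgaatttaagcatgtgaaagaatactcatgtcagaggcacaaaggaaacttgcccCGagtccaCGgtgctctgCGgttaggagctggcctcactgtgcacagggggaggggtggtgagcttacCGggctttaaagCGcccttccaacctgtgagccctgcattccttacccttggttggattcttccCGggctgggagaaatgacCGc
TKT: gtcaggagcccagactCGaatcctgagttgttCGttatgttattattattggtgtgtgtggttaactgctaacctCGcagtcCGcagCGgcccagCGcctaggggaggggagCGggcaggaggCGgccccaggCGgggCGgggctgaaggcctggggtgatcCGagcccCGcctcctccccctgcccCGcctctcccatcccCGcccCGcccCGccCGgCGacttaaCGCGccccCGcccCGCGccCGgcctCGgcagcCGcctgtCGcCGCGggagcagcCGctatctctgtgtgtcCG
The TKTL1 windows held 18 and 8 CG pairs and the TKT window 31. Of 35116 RefSeq promoter windows of the same length, whose median was 14 CG pairs, 44.5% held at least 18, 60.7% at least 8 and 20.7% at least 31. The windows of the other 6 genes held between 24 (TKTL2 and RPE) and 44 (TALDO1). Methylation was not measured here, and these counts describe the sequence alone. In the same build TKT lies on chr3:53224712-53256022, TKTL2 on chr4:163471095-163473754, RPIA on chr2:88691673-88750929 and RPE on chr2:210002638-210022260. TALDO1 lies on chr11:747464-765012, PGD on chr1:10399064-10420511 and PGLS on chr19:17511649-17521288.

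The values are log2 intensities, and changes below are on that scale with their standard error (SE). A gene is called at an adjusted p under 0.05 from limma over all 18417 genes. The background level was set at 3.39, the highest 25th percentile among the arrays, and a group mean at or under it is not treated as signal. The line labels were checked with ABCB1, the drug efflux pump, which read 3.24 to 3.63 in untreated KS and 11.17 to 11.26 in untreated KA. All 12 measured erythroleukaemia markers lay above background in every group. Of 9 lymphoid, 8 epithelial and 9 fibroblast and endothelial markers, 1, 1 and 3 lay at background in all groups, and the highest group means were those of CD3D (6.95, in untreated KA), KRT8 (10.67, in untreated KA) and PECAM1 (6.95, in untreated KS). The mean over the erythroleukaemia markers was 8.66 to 8.88 in untreated KS arrays and 9.10 to 9.19 in treated ones, and 8.87 to 8.88 and 9.02 to 9.04 in KA. With decitabine 7 of these 12 markers were called higher in KS and 2 in KA, with none lower, against 14.6% and 9.66% of all genes called higher. Without untreated KS replicate 3, 7 were higher and 1 lower in KS. Of the KA calls, ALAS2 (limma adjusted p = 0.0464) was lost with each of 9 arrays left out (0.0568 to 0.118). Their part in the results below was not tested.

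Among untreated KS arrays, replicate 3 differed from its group. Leaving it out, 329 genes were raised in KS by 1 or more. On the log2 scale its median position over those genes was 36.7% of the distance between the remaining untreated arrays and the treated mean, and 23.8% over 148 lowered genes. Treated KS replicate 1 lay 28.8% of the way back over 147 lowered genes and 9.5% over 271 raised ones. For raised genes, positions of the remaining 10 arrays ranged from -22.7 to 7.5%. For lowered genes they ranged from -15.7 to -6.98% in 4 KS arrays, and from -9.72 to 27.9% in the KA arrays, where each position rests on 2 to 9 genes. The comparisons of the 8 genes that use untreated KS, and those of other genes named below for a call, are given with and without replicate 3.

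TKTL1 was low in both untreated lines and high in both treated ones. In untreated KA its arrays read 4.87, 4.54 and 4.54, and in treated KA 7.80, 7.48 and 6.95. Every treated KA array lay above every untreated one. The rise was 2.76 ± 0.43, or 6.79-fold, and it ranked as number 3 of all 18417 genes in KA. In untreated KS it read 4.67, 4.39 and 6.62, and in treated KS 8.42, 8.65 and 8.60. The high untreated value is that of replicate 3, which lay at 51.8% of the distance between replicates 1 and 2 and the treated mean, and it still lay below all treated arrays. The rise in KS was 3.33 ± 0.43, or 10.1-fold, and 4.03 ± 0.20, or 16.3-fold, without that array. It ranked as number 2 in KS either way. In bulk RNA, more cells that express TKTL1 and more RNA per cell cannot be told apart.

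Between the untreated lines TKTL1 was not called. Its KS mean was 5.22 ± 1.21 and its KA mean 4.65 ± 0.19 (SD, n = 3), a difference of -0.58 ± 0.43 (limma adjusted p = 0.375, 95% interval -1.50 to 0.35). Without untreated KS replicate 3 the direction turned, to 0.12 ± 0.20 (adjusted p = 0.706). Between the treated lines, treated KA (7.41 ± 0.43) lay below treated KS (8.56 ± 0.12) in all arrays, by -1.14 ± 0.43, which missed the threshold in the fit over all arrays (adjusted p = 0.0658, 95% interval -2.07 to -0.22). That fit shares 1 spread over the 4 groups, untreated KS included. The difference was called when the 2 treated groups were fitted alone (adjusted p = 0.00174), and without untreated KS replicate 3 (0.000425) or replicate 2 (0.0395). It moved away from a call without treated KA replicate 3 (0.213) or 2 (0.115) or treated KS replicate 2 (0.145) or 3 (0.14). A trended robust variance also gave no call (0.154). These line comparisons share arrays with the ones on which TKTL1 was chosen. From low to high, the order was untreated KA, untreated KS, treated KA and treated KS. The first pair overlapped, while the arrays of the others did not. The rise was smaller in KA than in KS by 0.57 ± 0.60 (difference of responses -0.57), and by 1.26 ± 0.27 without that array (-1.26), given without a test. With each array left out in turn it ranged from -1.26 to -0.15.

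**Figure D1:**
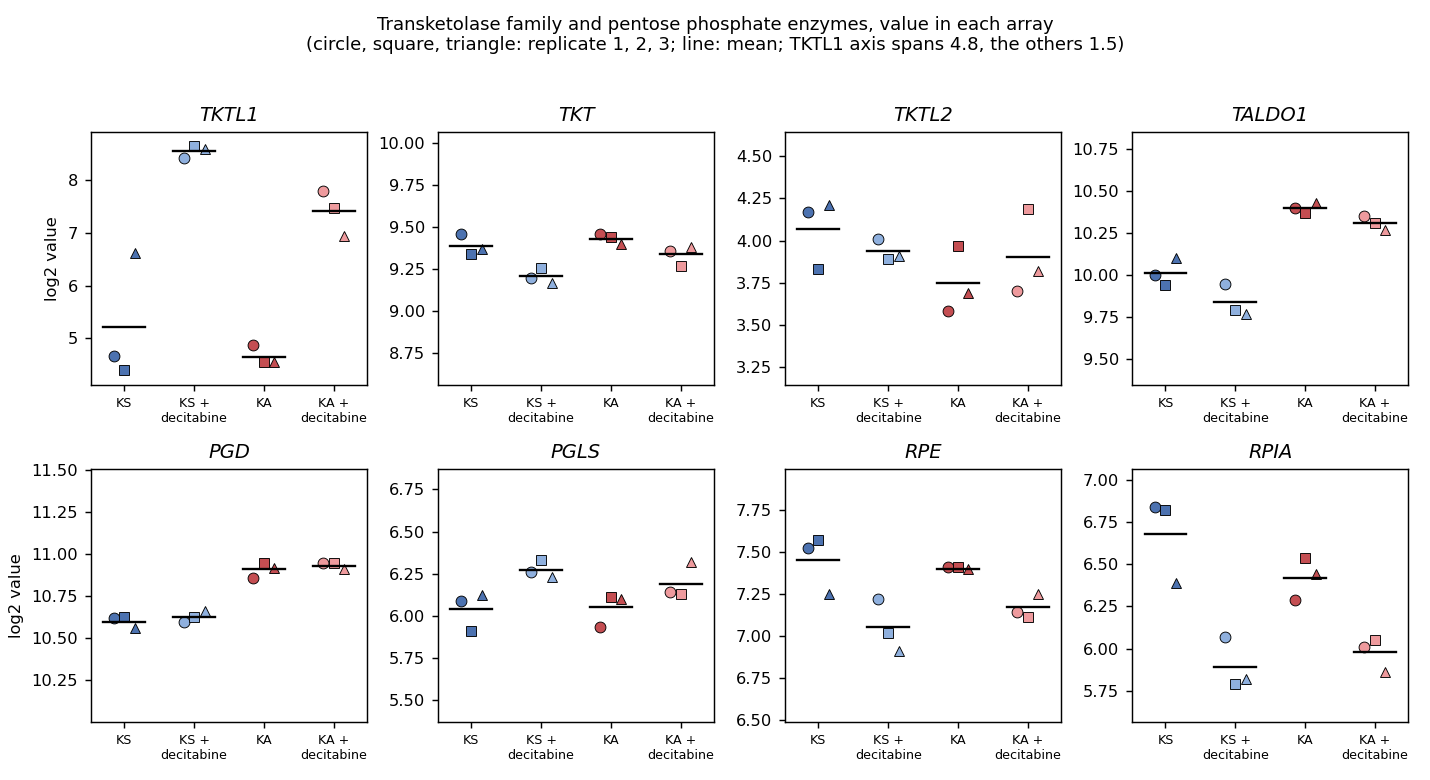
log2 value (vertical axis) of the 8 genes in each of the 12 arrays, by group, with circles, squares and triangles for replicates 1, 2 and 3 and a line at the group mean. TKTL1 arrays read 4.39 to 6.62 without and 6.95 to 8.65 with decitabine, and the TKTL1 axis spans more than the others.

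The other transketolases did not share the rise. TKT, the main transketolase of most cells, averaged 9.43 ± 0.03 in untreated and 9.34 ± 0.05 in treated KA, and 9.39 ± 0.06 and 9.21 ± 0.04 in KS (SD, n = 3). Its 12 arrays spanned 9.17 to 9.46, and in each line every treated array lay below every untreated one. The change was -0.10 ± 0.06 in KA (limma adjusted p = 0.350, 95% interval -0.24 to 0.04). In KS it was -0.18 ± 0.06, at the edge of the threshold (adjusted p = 0.0502, interval -0.32 to -0.04), and -0.19 ± 0.07 without untreated KS replicate 3 (0.0616). Median centring (0.0369), leaving out genes at background (0.0368) and a trended robust variance (0.0108) gave a call. Quantile normalization (-0.11, 0.254), a fit of the 2 KS groups alone (0.137) and leaving out untreated KS replicate 1 (0.172) moved it away from one. TKTL2, a testis relative without introns, averaged 3.75 to 4.07 in the 4 groups, a little above background. Its groups overlapped in all comparisons and it was not called with decitabine in KA (0.16 ± 0.14, limma adjusted p = 0.494) or KS (-0.13 ± 0.14, 0.545, and -0.06 ± 0.15, 0.809, without untreated KS replicate 3).

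Of the non-oxidative branch, RPIA and RPE fell in KS. RPIA, ribose 5-phosphate isomerase, which makes ribose 5-phosphate from ribulose 5-phosphate, read 6.84, 6.82 and 6.39 in untreated KS and 6.07, 5.79 and 5.82 in treated KS. All treated arrays were lower, and the lowest untreated one was again replicate 3. The change was -0.79 ± 0.12, a 1.73-fold fall (limma adjusted p = 0.000301), and -0.94 ± 0.10 without that array (3.78e-05). In KA the arrays of RPIA read 6.29, 6.54 and 6.44 before and 6.01, 6.05 and 5.86 after decitabine. The groups did not overlap, and the change of -0.45 ± 0.12 was called (limma adjusted p = 0.0271). That call was lost without treated KA replicate 1 (0.0611) or 3 (0.104) and without untreated KA replicate 2 (0.103) or 3 (0.0683).

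RPE, ribulose phosphate epimerase, which turns ribulose into xylulose 5-phosphate, moved the same way in KS. Its arrays read 7.52, 7.57 and 7.25 in untreated KS and 7.22, 7.02 and 6.91 in treated KS. The groups were separated by a narrow margin, between untreated replicate 3 and treated replicate 1. The change was -0.40 ± 0.10 (limma adjusted p = 0.00636), and -0.50 ± 0.09 without untreated KS replicate 3 (0.00115). In KA it read 7.41, 7.41 and 7.40 before and 7.14, 7.11 and 7.25 after, without overlap. The difference of -0.24 ± 0.10 was not called over all arrays (adjusted p = 0.126), though it was when the 2 KA groups were fitted alone (0.0461). RPE has a near-identical relative, RPEL1, so which copy was read is uncertain.

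TALDO1, transaldolase, which returns pathway sugars to glycolysis, averaged 10.01 ± 0.08 in untreated and 9.84 ± 0.10 in treated KS (SD, n = 3). The difference of -0.18 ± 0.07 was not called (limma adjusted p = 0.0820), and was -0.13 ± 0.08 without untreated KS replicate 3 (0.216). It was called without treated KS replicate 1 (0.0338) and with a trended robust variance (0.0167). In KA it was -0.09 ± 0.07 (0.437).

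Of the oxidative branch, PGD and PGLS were not called with decitabine in either line. PGD, 6-phosphogluconate dehydrogenase, which makes NADPH and ribulose 5-phosphate, changed by 0.02 ± 0.06 in KA (limma adjusted p = 0.840, 95% interval -0.11 to 0.15) and by 0.03 ± 0.06 in KS (0.803, -0.10 to 0.16). Its KS value without untreated replicate 3 was 0.00 ± 0.07 (0.976). PGLS, 6-phosphogluconolactonase, which supplies the substrate of PGD, averaged 6.05 ± 0.10 and 6.19 ± 0.11 in KA (0.15 ± 0.08, limma adjusted p = 0.271). In KS it read 6.09, 5.91 and 6.12 without and 6.26, 6.33 and 6.23 with decitabine. Every treated KS array was higher, by 0.23 ± 0.08 on average, just short of a call (limma adjusted p = 0.0523, interval 0.05 to 0.41). It was called without untreated KS replicate 3 (0.27 ± 0.09, 0.0404), without untreated KA replicate 1 or treated KA replicate 3 (0.0457 each), under quantile normalization (0.0433) and without genes at background (0.0414). Leaving out untreated KS replicate 2 (0.17, 0.199) or treated KS replicate 2 (0.148), or median centring (0.102), moved it away from a call.

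**Figure D2:**
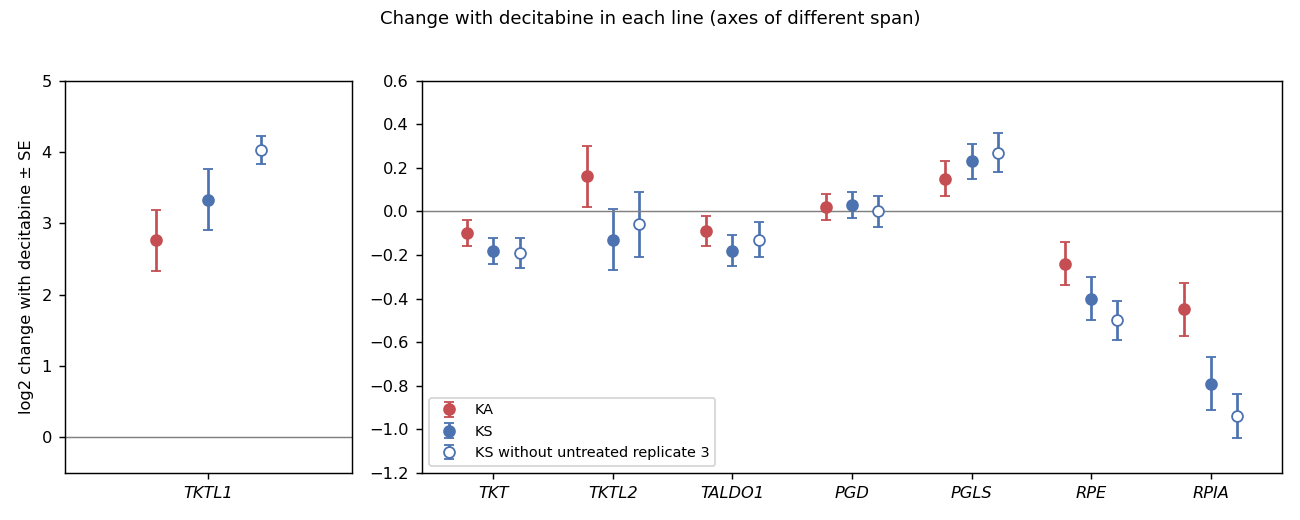
log2 change with decitabine (points, bars ± SE) in KA, in KS and in KS without untreated replicate 3, with TKTL1 on an axis of wider span. TKTL1 rose by 2.76 in KA and 3.33 in KS, RPIA differed by -0.45 and -0.79, and PGD lay near 0.

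Counted over the 7 genes tested, 1 was lower with decitabine in KA and 2 in KS, and none was higher. Over all genes, 14.6% were called in KA (9.66% higher, 4.96% lower) and 30.3% in KS (14.6% higher, 15.7% lower). Counts of 1 and 2 of 7 are too small to set the genes apart from that background. At an unadjusted p under 0.05 there were 2 lower in KA, where 16.1% of all genes were higher and 12.2% lower. In KS there were 1 higher and 4 lower, where 18.6% of all genes were higher and 20.3% lower. At an adjusted p under 0.05, the KS count without untreated replicate 3 was 1 higher and 2 lower. At that adjusted threshold, the KA count was 0 without each of the arrays named for RPIA. The KS count was 4 without genes at background and with a trended robust variance. The groups did not overlap for 5 of 7 genes in KA and 4 of 7 in KS, against 35.9% and 40% of all genes. The median change of the 7 was -0.09 in KA and -0.18 in KS, against -0.02 and -0.01 over all genes. For the difference between the 2 responses, limma called 0 of the 7, and over all genes 6.74% were called (4.6% higher, 2.14% lower). None of the 7 had an unadjusted p under 0.05, against 22.7% of all genes. RPIA was nearest, with 0.34 ± 0.17 (adjusted p = 0.257), and was called without untreated KS replicate 3 (0.49 ± 0.14, 0.0437).

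Between the untreated lines, TALDO1 and PGD were higher in KA. TALDO1 read 10.40, 10.37 and 10.43 in KA and 10.00, 9.94 and 10.10 in KS, without overlap, a difference of 0.39 ± 0.07 or 1.31-fold (limma adjusted p = 0.00124). PGD read 10.86, 10.95 and 10.92 in KA and 10.62, 10.63 and 10.56 in KS, again without overlap, a difference of 0.31 ± 0.06 or 1.24-fold (limma adjusted p = 0.00184). Without untreated KS replicate 3 these were 0.43 and 0.29 (0.00119 and 0.00625), and leaving out any other array kept both calls. The other 6 genes were not called. RPIA differed by -0.26 ± 0.12 (0.149), and was called without untreated KS replicate 3 (-0.40 ± 0.10, 0.0122). TKTL2, at -0.33 ± 0.14 (0.110), was called without untreated KA replicate 2 (0.0487) or untreated KS replicate 2 (0.0410), and was -0.26 ± 0.15 without untreated KS replicate 3 (0.255). TKT (0.04), PGLS (0.01) and RPE (-0.05) lay close to 0, and at 0.03, 0.05 and -0.14 without untreated KS replicate 3. The count of 2 of 8 compares with 25.7% of all genes called, 11.6% higher and 14.1% lower. Groups did not overlap for those 2 genes, against 38.4% of all genes. Some markers of other cell types were also called between the untreated lines, where 25.7% of all genes were called. The counts below are too small to set these markers apart from that share. CD3D, a T cell receptor component, read 6.95 in KA and 4.67 in KS (2.28 ± 0.09, limma adjusted p = 1.06e-09), the 1 of 9 lymphoid markers called. Without untreated KS replicate 3 its difference was again 2.28, and 3 of the 9 were called higher. The keratins KRT19 (0.56 ± 0.07) and KRT8 (0.32 ± 0.07) were higher in KA, 2 of 8 epithelial markers. Their differences without that array were 0.57 and 0.31, both called. Of 9 fibroblast and endothelial markers 1 was higher and 1 lower. The mean over the lymphoid markers was 4.29 to 4.52 in untreated KS arrays and 4.59 to 4.76 in untreated KA arrays, over the epithelial markers 6.63 to 6.71 and 6.77 to 6.84, and over the fibroblast and endothelial markers 4.04 to 4.13 and 4.04 to 4.23. Their part in the differences of TALDO1 and PGD was not tested.

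The same 2 genes were higher in KA after decitabine. TALDO1 averaged 10.31 ± 0.04 in treated KA and 9.84 ± 0.10 in treated KS (0.47 ± 0.07, limma adjusted p = 0.000253), and PGD 10.93 ± 0.03 and 10.63 ± 0.03 (0.31 ± 0.06, 0.00181). The 2 treated groups did not overlap for either gene. Over all genes 27% were called in this comparison, 15.1% higher and 11.9% lower. Groups did not overlap for 4 of the 8 genes, which included TKT and TKTL1, against 41.5% of all genes. For PGD the difference of the responses was 0.00 ± 0.09 (95% interval -0.19 to 0.18), and for TALDO1 0.08 ± 0.10 (-0.13 to 0.30), or 0.02 and 0.04 without untreated KS replicate 3. RPIA (0.08) and RPE (0.12) were not called between the treated lines.

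The genes whose pattern over the 12 arrays was most like that of TKTL1 were not pathway members. Ranked by Pearson correlation they were GCNA (0.991), a germ cell nuclear protein encoded on the X chromosome, HORMAD1 (0.989), a protein of meiotic chromosome axes, WNK4 (0.985), a kinase that regulates ion transport, C3 (0.982), the central complement protein, and GPX3 (0.981), a secreted glutathione peroxidase. The arrays fall into untreated and treated sets, which all these genes separate, so the coefficients are a description. GCNA read 3.06 ± 0.16 in untreated and 5.87 ± 0.18 in treated KA (mean ± SD, n = 3), and 3.65 ± 1.04 and 6.42 ± 0.15 in KS. Its untreated KA mean, like those of HORMAD1 in KA (2.38) and KS (3.05), did not exceed background. Without untreated KS replicate 3, in which TKTL1 is high and which also took part in the ranking, the correlations were 0.982 to 0.991.

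**Figure D3:**
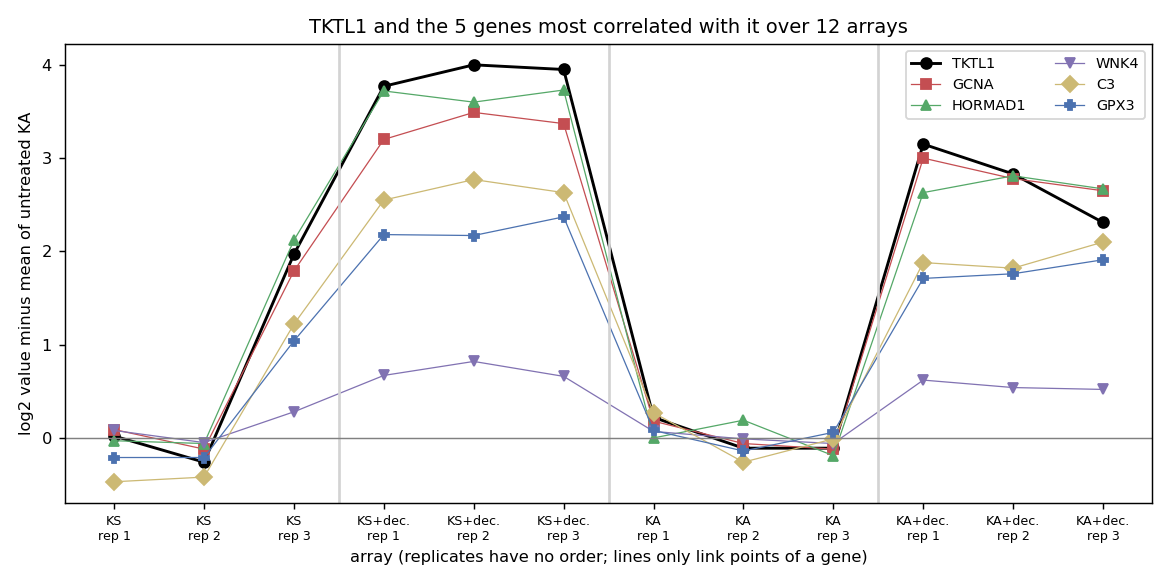
log2 value of TKTL1 and of the 5 most correlated genes in each array, minus the gene's mean in untreated KA. TKTL1 stood at 1.97 in untreated KS replicate 3, between the other untreated and the treated KS arrays, and WNK4 moved least. For GCNA and HORMAD1 the untreated KA mean lies below background, so the heights of their points are not exact.

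Neighbours of TKTL1 on Xq28 did not rise with it to a like degree. TKTL1 lies on chrX:154295795-154330350 in GRCh38.p14, and the nearest 5 measured protein-coding genes with a row of their own on each side were taken whatever their values. TEX28, a testis gene that lies just before TKTL1, read 4.23 and 4.15 without and with decitabine in KA (-0.08 ± 0.14, limma adjusted p = 0.765) and 4.20 and 4.23 in KS (0.03 ± 0.14, 0.921). OPN1LW, an opsin of cone cells with near-identical copies beside it, changed by 0.62 ± 0.23 in KA (0.0946) and 0.48 ± 0.23 in KS (0.146), from untreated means of 3.09 and 3.01, below background. It was called without untreated KA replicate 1 (0.84, 0.0388) in KA and without treated KS replicate 1 (0.71, 0.0317) in KS. EMD, emerin of the nuclear envelope, which follows TKTL1 among the measured genes, changed by 0.12 ± 0.07 in KA (0.328) and by -0.23 ± 0.07 in KS (0.0293). In KA the called neighbours were DNASE1L1, a DNase relative, which was higher (0.41 ± 0.09, limma adjusted p = 0.00794), and HCFC1, a transcriptional coregulator, which was lower (-0.25 ± 0.06, 0.0189). The HCFC1 call was lost without treated KA replicate 2 or untreated KA replicate 2 or 3 (0.056 to 0.0695). In KS, HCFC1 (-0.63), IRAK1, a kinase of innate immune signalling (-0.66), RPL10, a ribosomal protein (-0.68), and TAFAZZIN, a cardiolipin enzyme (-0.29), fell beside EMD, and TMEM187, a membrane protein, rose (0.30). Of these, EMD was lost without treated KS replicate 1 or 2 or untreated KS replicate 1 or 2 (0.0753 to 0.113). TAFAZZIN was lost without treated KS replicate 1 or 3 or untreated KS replicate 1 or 2 (0.0682 to 0.12). TMEM187 was lost without treated KS replicate 2 or 3, untreated KS replicate 1 or 2 or untreated KA replicate 2 (0.0502 to 0.149). The KS values without untreated replicate 3 were -0.62 for HCFC1, -0.66 for IRAK1, -0.71 for RPL10, -0.38 for TAFAZZIN, -0.25 for EMD and 0.34 for TMEM187, all called. ATP6AP1, an accessory subunit of the vacuolar proton pump, was called in neither line (0.20 and -0.08). Over all genes, 9.66% were called higher and 4.96% lower in KA, and 14.6% higher and 15.7% lower in KS.

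**Figure D4:**
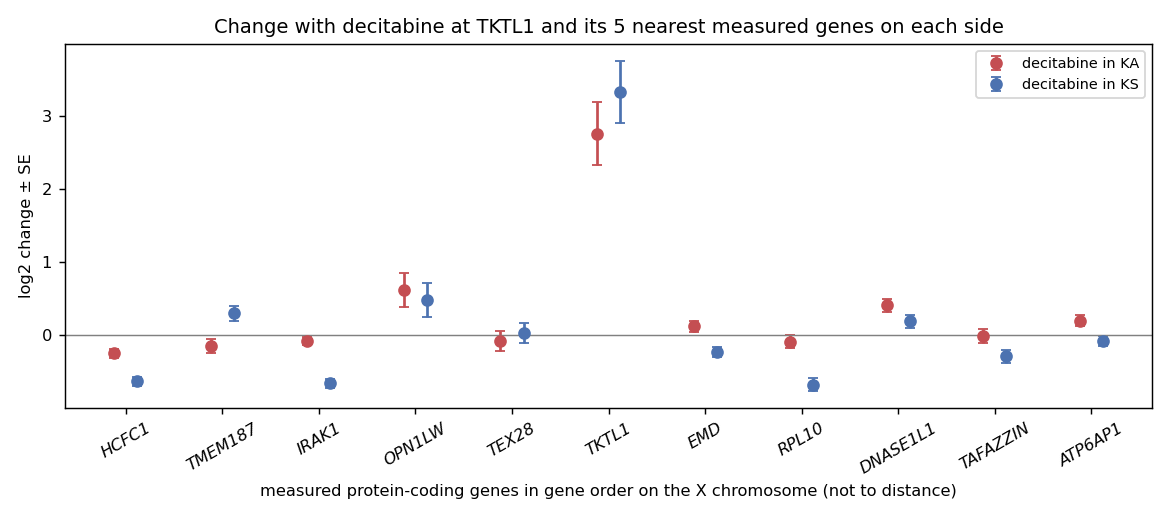
log2 change with decitabine (± SE) in KA and KS at TKTL1 and its 5 nearest measured genes on each side, in gene order and not to distance. TKTL1 rose by 2.76 and 3.33, while the neighbours lay between -0.68 and 0.62.

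Genes that adjoin the pathway were taken from 5 lists, chosen as the members were. Their counts stand beside the shares of all genes called higher and lower, which were 9.66% and 4.96% with decitabine in KA, 14.6% and 15.7% in KS, and 11.6% and 14.1% between untreated lines. The median change of all genes was -0.02 in KA and -0.01 in KS. Of 10 genes that handle ribose phosphate, 1 rose and 1 fell with decitabine in each line, and 2 rose and 2 fell in KS without untreated KS replicate 3. In all, 14.6% of genes were called in KA and 30.3% in KS. PRPS1, which makes phosphoribosyl pyrophosphate from ribose 5-phosphate, changed by -0.28 ± 0.06 in KA (limma adjusted p = 0.0102) and -0.40 ± 0.06 in KS (0.000371). PRPSAP1, a protein bound to that enzyme, rose by 0.52 ± 0.08 and 0.44 ± 0.08 (0.00125 and 0.000987), and its level was 0.34 ± 0.08 higher in untreated KA than KS (0.00646). The median change was -0.06 in KA and -0.03 in KS. PRPS2, a second synthetase, differed by -0.21 ± 0.07 between untreated lines (0.0339), a call lost without untreated KA replicate 2 or 3 or untreated KS replicate 1 or 2 (up to 0.1). The KS changes without untreated KS replicate 3 were -0.44 for PRPS1 and 0.49 for PRPSAP1, and the line differences 0.39 for PRPSAP1 and -0.23 for PRPS2, all called.

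Of 14 enzymes of glycolysis that share intermediates with the pathway, 5 fell with decitabine in KA (4.96% of all genes), and 6 fell and 1 rose in KS (15.7% and 14.6% of all genes). No rise was called in KS without untreated or treated KS replicate 2. Medians were -0.18 in KA and -0.15 in KS, against -0.02 and -0.01 over all genes. HK2, a hexokinase, changed by -0.94 ± 0.19 in KA (limma adjusted p = 0.00552) and -1.15 ± 0.19 in KS (0.00045), and GPI, which converts glucose and fructose 6-phosphate, by -0.42 ± 0.08 and -0.44 ± 0.08 (0.00447 and 0.00093). ALDOC, an aldolase, changed by -0.48 ± 0.12 in KA (0.0153), a call lost without treated KA replicate 2 (0.0508) or 3 (0.0705), the arrays whose removal left 2 of the 5 falls. TIGAR, a phosphatase that directs sugar towards the pathway, fell in KS from 3.65 to 2.88 (-0.77 ± 0.17, 0.00364). The treated mean is below background, so the size of that fall is uncertain. ALDOC changed by 0.25 in KS (limma adjusted p = 0.142) and TIGAR by 0.17 in KA (0.553). Their differences of responses were called, at -0.73 ± 0.17 (0.0228) for ALDOC and 0.94 ± 0.24 (0.0361) for TIGAR, the latter again uncertain in size. Both calls were lost with some single arrays left out (up to 0.0609 and 0.0863). Between untreated lines 6 were higher in KA and 1 lower (11.6% and 14.1% of all genes), led by ALDOC (1.04 ± 0.12), HK2 (0.97 ± 0.19) and PFKM, a phosphofructokinase subunit (0.56 ± 0.06, limma adjusted p = 2.93e-05). Without untreated KS replicate 3, untreated KS replicate 1 or untreated KA replicate 1 or 3, 4 were higher. Leaving out untreated KS replicate 3, the KS changes were -1.28 for HK2, -0.47 for GPI and -0.63 for TIGAR, and the line differences 1.14 for ALDOC, 0.83 for HK2 and 0.54 for PFKM, all called. The differences of responses were then -0.83 for ALDOC and 0.80 for TIGAR, both called.

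Of 14 other sources of NADPH, 3 rose and 1 fell in KA (9.66% and 4.96% of all genes), and 4 rose and 4 fell in KS (14.6% and 15.7%). In KS 2 fell without untreated KS replicate 1 or treated KS replicate 2. IDH2, a mitochondrial isocitrate dehydrogenase, rose from 7.13 to 8.75 in KS (1.62 ± 0.15, limma adjusted p = 1.22e-05) and by 0.58 ± 0.15 in KA (0.0240). The KA call was lost with each of the 6 KA arrays left out in turn (0.0537 to 0.0745), and the difference of responses was called (-1.05 ± 0.22, 0.0155). ALDH1L2, a mitochondrial folate enzyme, rose by 0.87 ± 0.06 in KA (1.23e-05) and changed by 0.04 in KS (0.697), and that difference was also called (0.83 ± 0.08, 0.000821). MTHFD1, a cytosolic folate enzyme, changed by -0.44 ± 0.09 in KA and -0.56 ± 0.09 in KS (0.00494 and 0.000288). Between untreated lines 4 were higher in KA and 3 lower (11.6% and 14.1% of all genes), with IDH2 0.97 ± 0.15 and ALDH1L2 0.78 ± 0.06 higher and MTHFD2L, a mitochondrial folate enzyme, differing by -0.67 ± 0.10. MTHFD2L also fell in KS with decitabine (-0.36 ± 0.10, 0.0111), a call lost without treated KS replicate 2 (0.0521) or untreated KS replicate 1 (0.0501). When untreated KS replicate 3 was left out, the KS changes were 1.85 for IDH2, -0.66 for MTHFD1 and -0.42 for MTHFD2L. The line differences were then 1.19, 0.76 and -0.72 for IDH2, ALDH1L2 and MTHFD2L, and the differences of responses -1.27 for IDH2 and 0.85 for ALDH1L2, all called.

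Of 15 genes of the NRF2 pathway and of the glutathione and thioredoxin systems, whose reductases draw on NADPH, 1 fell in KA (4.96% of all genes) and 4 fell in KS (15.7%). SLC7A11, the cystine importer, fell from 8.46 to 7.39 in KS (-1.07 ± 0.13, limma adjusted p = 4.45e-05) and changed by 0.08 in KA (0.740), and the difference of responses was called (1.15 ± 0.18, 0.00435). NQO1, a quinone reductase, changed by -0.73 ± 0.11 in KS and SRXN1, sulfiredoxin, by -0.60 ± 0.09 (0.000259 and 0.000215). The fall in KA was PRDX1, a peroxiredoxin (-0.26 ± 0.06, 0.0140), and it was lost without treated KA replicate 2 (0.0513). Left-out arrays put the KS count between 3 and 7. Between untreated lines 3 were higher in KA and 4 lower (11.6% and 14.1% of all genes), with SLC7A11 0.99 ± 0.13 higher, and GCLC, which limits glutathione synthesis, at -0.46 ± 0.11 and TXN, thioredoxin, at -0.45 ± 0.09. In KS without untreated replicate 3, the changes were -1.18 for SLC7A11, -0.61 for NQO1 and -0.69 for SRXN1. The line differences were then 0.88, -0.55 and -0.49 for SLC7A11, GCLC and TXN, and the difference of responses of SLC7A11 was 1.26, all called.

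Of 11 genes for thiamine, the vitamin that transketolase needs, and its other enzymes, 1 rose and 1 fell in KA (9.66% and 4.96% of all genes), and 2 rose and 3 fell in KS (14.6% and 15.7%). In KA these were HACL1, a peroxisomal lyase (0.34 ± 0.08, limma adjusted p = 0.0157), and PDHB, a pyruvate dehydrogenase subunit (-0.29 ± 0.08, 0.0215). HACL1 was lost without treated KA replicate 2 or 3 or untreated KA replicate 1 (0.0583 to 0.0686), and PDHB without treated KA replicate 3 or untreated KA replicate 1 or 2 (0.0708 to 0.0916). In KS, DHTKD1, a mitochondrial dehydrogenase, rose by 0.81 ± 0.09 and BCKDHA, of branched-chain keto acid oxidation, by 0.62 ± 0.10. SLC19A2, a thiamine carrier, changed by -0.44 ± 0.08 in KS (limma adjusted p = 0.00109), changed by 0.01 in KA (0.971), and was 0.50 ± 0.08 higher in untreated KA than KS (0.000443). Its difference of responses was called (0.44 ± 0.11, 0.0372), a call lost with 10 of the 12 arrays each left out (up to 0.0922). That of DHTKD1 was called too (-0.58 ± 0.12, 0.0173), and stayed called with each array left out (up to 0.0473). Between untreated lines 3 were higher in KA and 2 lower (11.6% and 14.1% of all genes). DHTKD1 was 0.67 ± 0.09 and BCKDHA 0.65 ± 0.10 higher there. The KS count of falls was 2 without untreated KS replicate 1 or 2 or treated KS replicate 2 or 3. Omitting untreated KS replicate 3 gave KS changes of 0.88 for DHTKD1, 0.69 for BCKDHA and -0.50 for SLC19A2, whose line difference was 0.44 and whose difference of responses was 0.50, all called. The line differences of DHTKD1 and BCKDHA were then 0.74 and 0.72, and the difference of responses of DHTKD1 was -0.65, all called. The 2 comparisons with decitabine and those between lines share their untreated arrays.

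**Figure D5:**
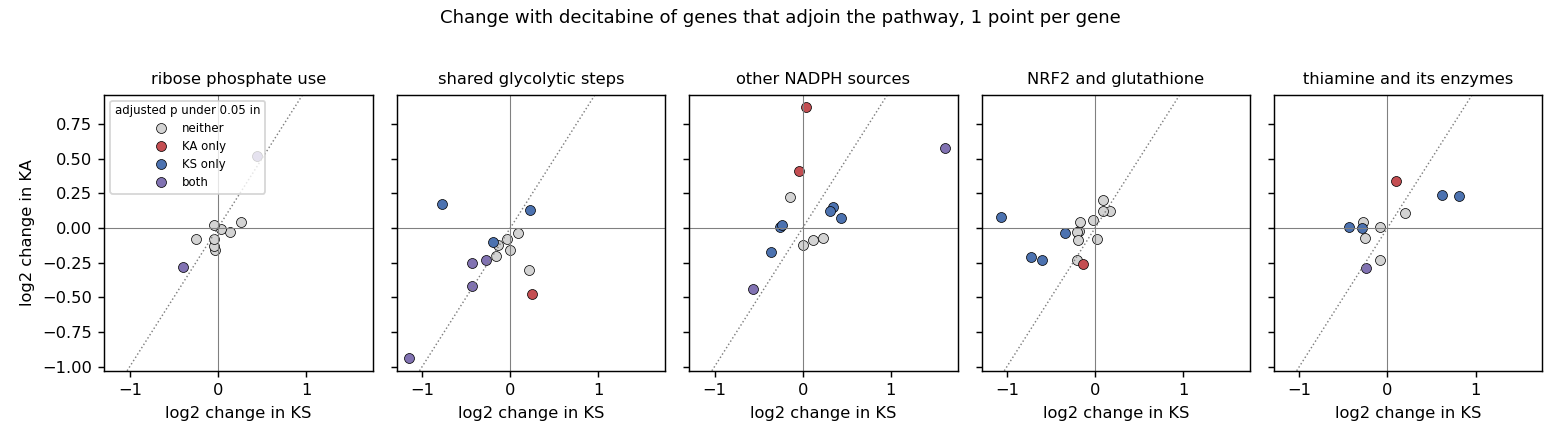
log2 change with decitabine in KS (horizontal) and KA (vertical) for genes of the 5 lists, 1 point per gene, coloured by the line in which the adjusted p lay under 0.05. HK2 lies lowest among the glycolytic genes at -1.15 and -0.94, and IDH2 farthest right among the NADPH sources at 1.62.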

How the data were processed

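Total RNA (Trizol, 6 ug) was labelled as biotin cRNA and hybridized to Affymetrix arrays, per the labels' protocols. The deposited values are log2 intensities; the authors' background correction, summarization and normalization are not given in the sources used, and no scaling was added. Of 33297 rows, 19460 carry 1 gene symbol per the platform annotation, 1754 several and 12083 none; 19429 matched RefSeq (GRCh38.p14) by Entrez identifier. The brightest row stood for each of 18417 genes. Rows without exactly 1 symbol were left out.

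Group means were fitted in limma 3.58.1 (R 4.3.3) over 12 arrays, with moderated variances and Benjamini-Hochberg adjustment, and checked on simulated data. The genes and lists were chosen with earlier results of these data known. All 8 genes are named; from each list, up to 3 called genes with the largest change and no overlap of groups. TKTL1 neighbours and the 5 most correlated genes are named by rank. Alternatives were another scaling, filter, row, variance model, fit of 2 groups, replicate block and each array left out. The number of arrays limits the precision. Plots used Python 3.11.15 and matplotlib 3.10.9.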

Additional observations from a re-analysis of the deposited data

How the results depend on the processing

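The rise of TKTL1 kept its direction under every alternative, at 2.57 to 2.99 in KA and 2.91 to 4.03 in KS with 1 array left out. The number of genes called with decitabine in KA was 1, 2 when the 2 KA groups were fitted alone, 2 without both KS arrays that stand apart (untreated replicate 3 and treated replicate 1, an alternative chosen after seeing the data), and 0 to 1 with 1 array left out. In KS it was 2, 2 to 3 with 1 array left out, and 4 without genes at background and 4 with a trended robust variance. For the difference of responses it was 0, 0 to 1 with 1 array left out, and 1 without both KS arrays. The difference of TKTL1 between untreated lines, -0.58 over all arrays, changed sign, with -0.99 to 0.12 over the left-out arrays (0.12 without both KS arrays). So did some differences near 0. With 1 array left out, PGD in KA ranged from 0.00 to 0.04, PGLS between untreated lines from -0.06 to 0.06, and RPE there from -0.14 to 0.02 (0.02 under quantile normalization). TKTL2 between treated lines ranged from -0.18 to 0.07 (0.00 without both KS arrays), and the difference of responses of PGD from -0.03 to 0.02 (0.02 under median centring, 0.01 without both KS arrays). The difference of responses of TKTL1 was -1.26 without untreated KS replicate 3 and -1.33 without both arrays. Apart from the left-out arrays, the cause was not tested. Over all genes, calls for the difference of responses numbered 1241 (847 higher, 394 lower), 1133 under quantile normalization (611 and 522), 1918 with a trended robust variance, and 564 to 2049 with 1 array left out, the highest without untreated KS replicate 3 and the lowest without untreated KS replicate 1. With the replicate block, the counts stayed at 1 and 2 of the 7 genes tested with decitabine in KA and KS. They stayed at 2 of 8 between untreated lines and between treated lines, and at 0 of 7 for the difference of responses. Calls for that difference over all genes numbered 778. Deviations from group means of same-numbered arrays correlated at -0.26 to 0.187, and those of differently numbered arrays at -0.256 to 0.259. With 3 arrays per group, these values cannot tell whether same-numbered arrays were handled together, and the labels give only the number.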
